A study of Mus musculus with 16 samples.

Results

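Coding genes with alternative 3' ends were taken from the mm10 gene annotation deposited with a mouse spleen RNA-seq study. A gene was a member when it lay on 1 chromosome and strand, had at least 2 transcripts with a coding segment and a stop codon, and its outermost transcript 3' ends lay 200 bp or more apart. Of 23337 gene symbols, 20508 were coding, 20411 of these lay on 1 chromosome and strand, and 3788 of those had 2 or more coding transcripts. The rule found 848 members, which is 22.4% of the 3788 multi-transcript genes. They divided into 74 genes in which every coding transcript ended at the same stop codon and 774 with different stop codons. The comparison class was the 2825 multi-transcript genes whose coding transcripts all shared 1 3' end. Another 115 genes had ends that differed by less than 200 bp, and 16623 coding genes had a single coding transcript.

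The study sequenced polyadenylated spleen RNA of 16 samples, 4 in each of 4 groups, with no treatment named. There were wild-type mice under study code NG66 and wild-type mice under study code NG108. The triple knockout lacked Zfp36, TNFR1 and TNFR2, and the double knockout, titled with code NG66, lacked TNFR1 and TNFR2. The file used here is a gene annotation with 0 columns of sample values, so expression in these groups was not analysed here, depth is unknown, and the units below are genes and transcripts. The 3 genotype genes Zfp36, Tnfrsf1a and Tnfrsf1b had 1 coding transcript each and so could not be members.

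The 3' end of most mRNAs is made by cleavage and addition of a poly(A) tail downstream of a signal hexamer, most often AATAAA in DNA letters, with ATTAAA as its commonest variant. When a gene uses a proximal and a distal site behind the same stop codon, the protein is the same at its carboxyl end. The choice of site itself changes only the length of the 3' UTR, and with it the sites open to RNA-binding proteins and microRNAs. When the proximal site lies in an intron, the mRNA gains another last exon, and the protein another carboxyl end. A composite last exon arises when an internal exon is extended past its 5' splice site, and a skipped last exon is a separate exon that the distal form leaves out. Tristetraprolin (TTP), the product of Zfp36, attaches to AU-rich elements of a 3' UTR and speeds decay of the mRNA.

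The next sequences show what an alternative 3' end looked like in both classes. Each is the last 30 bases of the annotated transcript, 5' to 3' on the gene's strand, on mm10 (the GRCm38 assembly), with bases from the GENCODE M21 transcripts. Capitals mark the hexamer AATAAA or ATTAAA where 1 started 10 to 30 bases before the end, so 1 that starts farther upstream is not shown. Only the copy nearest the end is capitalised, and the Ghr proximal and Msi2 distal windows hold another that overlaps it. The first 4 genes had the same stop codon, and the last 4 had different ones. These examples were picked after their sequences were seen, to show pairs with a hexamer at both ends and pairs with 1 only at the distal end.
Uba1 proximal, chrX:20682675-20682704, plus: cctaaatcccAATAAAaggataattaccca
Uba1 distal, chrX:20683150-20683179, plus: atcaatcAATAAAaacagtgatcaggctgc
Eef2k proximal, chr7:120903972-120904001, plus: ctgctatgtaatatagatttttcaaaaaca
Eef2k distal, chr7:120907190-120907219, plus: ttccAATAAAgaaagcctttccgacctggc
Il15ra proximal, chr2:11733220-11733249, plus: agcaaggaggatgaagacacaggagcctaa
Il15ra distal, chr2:11733933-11733962, plus: gtagacaaAATAAAatatctattttcagta
Kcnd3 proximal, chr3:105669180-105669209, plus: agcaatgtcgtcaaggtctctgccttgtaa
Kcnd3 distal, chr3:105673973-105674002, plus: aatctggATTAAAcaaattacgtgccacaa
Cstf3 proximal, chr2:104609400-104609429, plus: tgcaacaacATTAAAacagtttcaatggtg
Cstf3 distal, chr2:104665396-104665425, plus: tttgaaaggAATAAAaggacctcaaaaaca
Cflar proximal, chr1:58733198-58733227, plus: aatgctgcaaAATAAActtcctgattctta
Cflar distal, chr1:58758853-58758882, plus: agtcattacATTAAAgattatttcttttaa
Ghr proximal, chr15:3327525-3327554, minus: aaaataataaAATAAAattttaaaaattaa
Ghr distal, chr15:3317760-3317789, minus: ttcaaagttcAATAAAtttattttcttgga
Msi2 proximal, chr11:88685954-88685983, minus: ccgagcAATAAAtaacccagcgaagatgaa
Msi2 distal, chr11:88339382-88339411, minus: aaaataataaAATAAActgttttgaacaga

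The proximal ends of Il15ra and Kcnd3 coincide with their stop codons, so the 2 printed windows hold coding sequence up to the final taa. Uba1, which encodes the ubiquitin-activating enzyme, carried AATAAA at both of its ends. Eef2k, the kinase of elongation factor 2, carried it in the printed bases only at the distal end.

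Not all members were genes with alternative ends at a single locus. In 166 of the 774 different-stop members the coding transcripts formed separate loci that did not overlap, and in 156 of those 1 accession had been placed at several positions. Among the 166 were 97 predicted genes named Gm or LOC, 23 vomeronasal receptor genes and 1 odorant receptor gene, and 54 of them lay on chromosome 7. Hba-a1 and Hba-a2, which encode alpha-globin, met the rule in the same way. The outermost ends of the 166 members had a median distance of 279377 bp. The rule kept them as members, but such pairs do not describe 1 locus with 2 ends, and they are left out from here on unless named. That left 682 members in 1 overlapping locus, all 74 same-stop genes and 608 different-stop genes, or 18.8% of the 3622 one-locus multi-transcript genes. In 3 of the 682, Gm11554, Gm4302 and Gm4340, a single accession was still placed repeatedly.

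Different stop codons were the common case. The 608 one-locus genes make up 89.1% of the 682, and only 15 of them also held a pair of transcripts with a shared stop codon and ends 200 bp apart. Of the 682, 615 had 2 ends separated by at least 200 bp, 53 had 3 and 14 had 4 or more, with a maximum of 6. Among the genes named here, Arpp21, a cAMP-regulated phosphoprotein gene, had 5 such ends over 9 coding transcripts, with proximal and distal ends 114941 bp apart, and Gm4340 also had 5, from its repeated placements. Asph, an aspartate beta-hydroxylase gene, had 4 over 10 transcripts, and Cadps2, a regulator of dense-core vesicle exocytosis, had 4 over 7. Asph and Cadps2 were listed first among several genes with 4.

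The distance between ends differed in scale between the classes. In same-stop genes the median was 1522 bp (quartiles 773 to 3321, range 226 to 33154 bp), and in one-locus different-stop genes it was 11879.5 bp (quartiles 4745 to 31436, range 223 to 1967096 bp). The rule set the lower limit of both ranges. Just inside it lay Tulp2 (223 bp), Klra7 (226 bp) and Spn (238 bp). Just outside it lay Cacna1b (195 bp), Fam134c (194 bp) and Sltm (160 bp). Few genes lay near the limit, since the 115 genes with ends under 200 bp apart had a median separation of 4 bp.

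**Figure D1:**
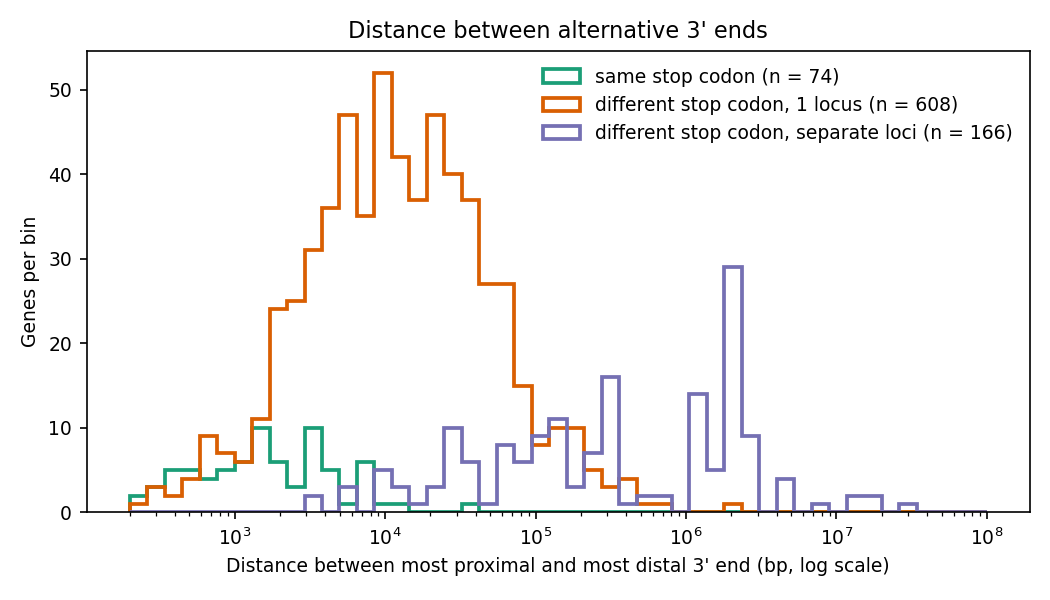
Number of genes per bin of the distance between the most proximal and the most distal 3' end (bp, log axis), for same-stop members, one-locus different-stop members and members in separate loci. Same-stop genes centre near 1522 bp, one-locus different-stop genes near 11879.5 bp, and separate loci near 279377 bp.

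Same-stop genes took 2 forms. In 43 of the 74 the proximal and distal last exons overlapped, the layout of a tandem 3' UTR in which the distal form reads on past the proximal end. In the other 31 the last exons did not overlap, so the forms differed by splicing within the 3' UTR. All 10 same-stop genes with the largest end distance belonged to the second kind.

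Fcrl5, an Fc receptor-like gene of B cells, had the largest distance, 33154 bp, yet its 3' UTRs of 547 and 1027 bases differed by 480 bases. Dpys, the dihydropyrimidinase gene, had ends 14212 bp apart with 3' UTRs of 442 and 803 bases. Mthfd1l, a mitochondrial folate enzyme gene, had ends 10951 bp apart with 3' UTRs of 509 and 629 bases. In these 3 genes the spacing of the ends was mostly intron.

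Cry2, a circadian repressor gene, had a 3' UTR of 368 bases in the proximal form and 2176 bases in the distal form, from ends 7613 bp apart. Its forms changed in 3' UTR length and not in coding length, which was 592 codons in both. Across all 74 same-stop genes the proximal and distal forms had equal coding length in 32 (43.2%). In the others the coding length differed as well. Klhl25, a substrate adaptor gene for the CUL3 ubiquitin ligase, followed with 374 and 1457 bases and ends 6639 bp apart, and Dnajb11, an endoplasmic reticulum chaperone gene, with 730 and 1260 bases and ends 7169 bp apart.

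A distal end did not always bring the longer 3' UTR. The proximal form had the longer one in 10 of the 74 genes. Dnajc1, a chaperone gene, had 3506 bases in the proximal form and 3100 in the distal form (7418 bp apart), and Tmem164 had 3980 and 1087 bases (5123 bp apart). Spn, which encodes the leukocyte sialoglycoprotein CD43, had 2444 bases in the proximal form and 182 in the distal form, although its ends were only 238 bp apart. Fancc, a gene of the Fanconi anaemia DNA repair complex, had almost equal 3' UTRs of 1127 and 1163 bases from ends 6830 bp apart.

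Over the 74 genes the shortest 3' UTR had a median of 281.5 bases (quartiles 44.75 to 541) and the longest 1446 bases (quartiles 777.5 to 2269.25), and the median difference was 1130 bases. In 13 genes, all with overlapping last exons, the proximal transcript ended exactly at its stop codon and so had a 3' UTR of 0 bases. They include Il15ra and Il17re, which encode cytokine receptor chains, the potassium channel genes Kcnd3 and Kcnt1, and Ate1, Bnip2, Dyrk1b, Enpp2, Grid2ip, Mylip, Nags, Orc2 and Slc7a15. How these ends had been determined was not analysed here. Without transcripts of this kind 61 same-stop genes remained.

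**Figure D2:**
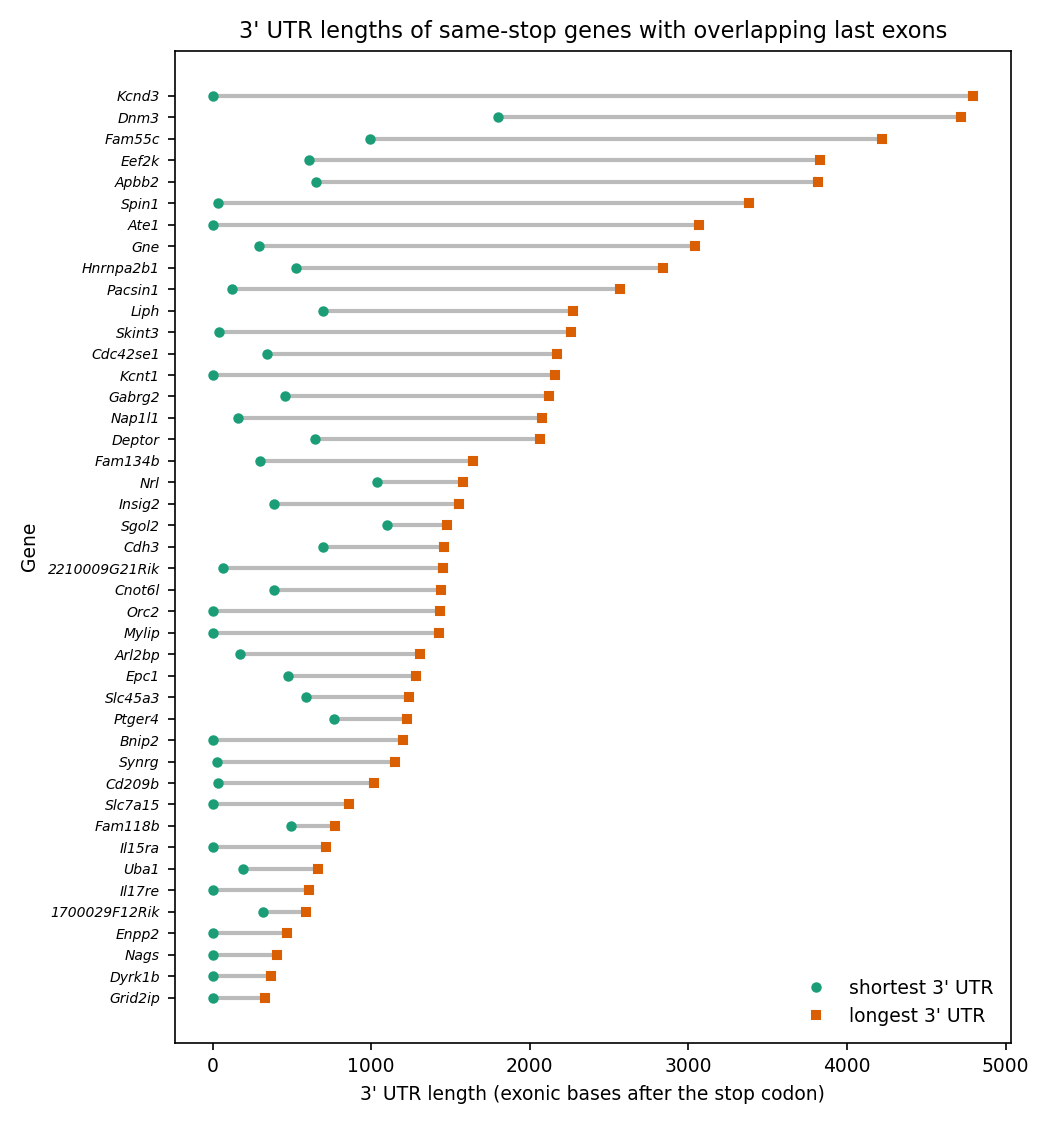
Shortest (circle) and longest (square) 3' UTR, in exonic bases after the stop codon, of the 43 same-stop genes with overlapping last exons, ordered by the longest. Kcnd3 spans 0 to 4793 bases, and 13 circles sit at 0.

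Among the classes compared here, the share with alternative starts was highest in the same-stop genes with overlapping last exons. Of the 43 genes with overlapping last exons, 28 (65.1%) had transcription starts at least 200 bp apart, against 5 of 31 (16.1%) with separate last exons and 1091 of 2825 (38.6%) with a shared 3' end. The same was counted in 149 of 608 different-stop genes (24.5%) and in 58 of 115 genes with ends under 200 bp apart (50.4%). No test was made of these shares.

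Among different-stop genes, 337 of the 608 (55.4%) had a composite last exon, 261 (42.9%) a skipped one, and 10 had overlapping last exons with different stop codons. The start codon was shared by the proximal and distal forms in 549 (90.3%). The proximal form encoded fewer codons in 481 (79.1%), more in 114 and the same number in 13, and it was below 50% of the distal length in 151 (24.8%). Proximal coding length was a median of 74.4% of the distal length for composite exons and 81.6% for skipped exons. Position of an end along the gene therefore did not fix which protein was shorter.

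Macrod2, a mono-ADP-ribosyl hydrolase gene, had the largest end distance, 1967096 bp, with 114 codons in the proximal form and 475 in the distal form. Camta1, a calmodulin-binding transcription activator gene, followed at 731049 bp with 80 and 1682 codons. Arhgap15, a Rac GTPase-activating protein gene, had ends 495850 bp apart and 186 and 481 codons. Trappc9, a vesicle trafficking gene, had ends 404197 bp apart and 494 and 960 codons, and Pcdh7, a protocadherin gene, had ends 402775 bp apart and 1069 and 1255 codons. Also among the 10 widest were 2210408I21Rik (419774 bp), A830018L16Rik (374081 bp), Msi2 (346572 bp) and Cadps2 (333480 bp). In all 10 the proximal form was the shorter protein. Ahnak, named after its values were seen, was the extreme in the other direction, with 5656 codons in the proximal form and 150 in the distal form.

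**Figure D3:**
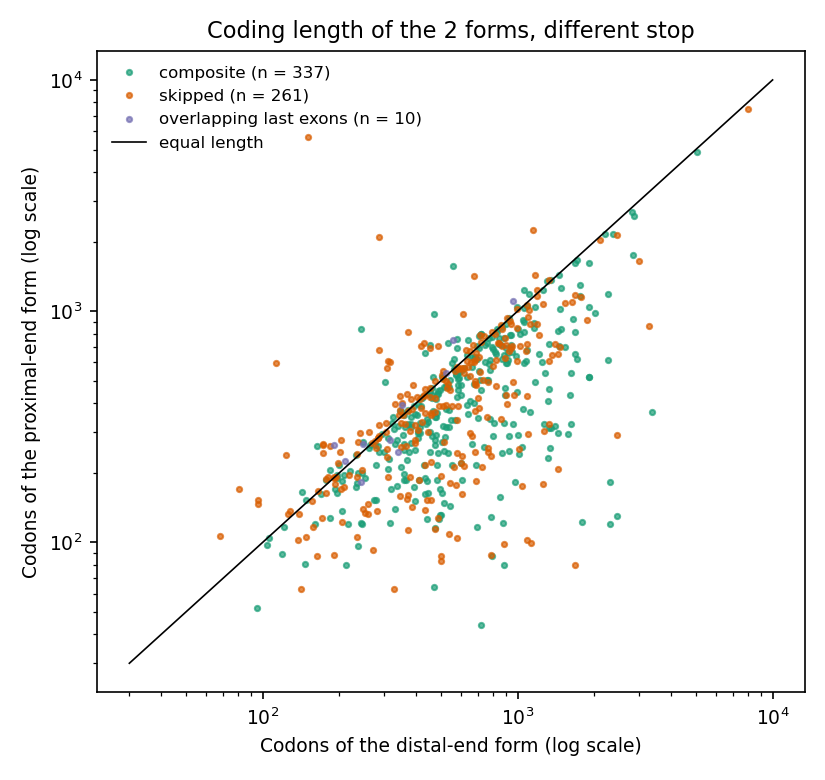
Codons of the proximal-end form against codons of the distal-end form (both log axes) for the 608 one-locus different-stop genes, by type of last exon, with the line of equal length. Of the points, 481 lie below the line and 114 above it, where Ahnak (150, 5656) is the farthest.

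The proximal end lay inside an intron of the distal form in 334 of 337 composite and 256 of 261 skipped genes. Composite last exons ran a median of 655 bp past the splice site (quartiles 257.75 to 1486.75). The unused intron began with GT in 320 of the 324 composite genes with covered bases and with GC in 3. The same was not counted in other introns, so nothing particular to composite ends is read from it. The intron that held a composite end had a median of 3805.5 bp, against 2000 bp for the median of the other introns in the same genes. For skipped ends these values were 9586.5 and 2207.75 bp. The host intron was the longest of the gene in 88 of 254 skipped genes (34.6%), where 1 divided by the number of introns averages 13.3%, and in 52 of 327 composite genes (15.9%, against 11.7%). An end inside an intron also needs an intron long enough to hold it, and that part in the difference was not tested. The first intron was the host in 9 of 581 genes and the last intron in 189 (32.5%), where 1 divided by the number of introns averages 12.4%. The rule asks for a coding segment and a stop codon in the proximal form, which limits ends in the first intron. How far this shaped the shares was not tested.

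**Figure D4:**
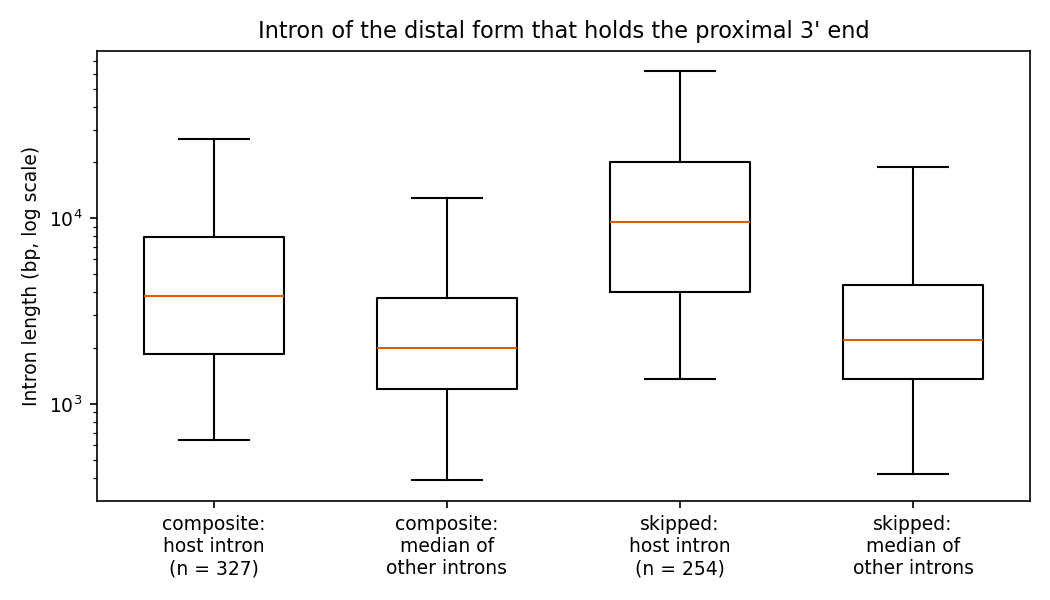
Length (bp, log axis) of the intron of the distal form that holds the proximal 3' end, beside the median of the other introns of the same gene, for composite and skipped genes with 2 or more introns. Line, median; box, quartiles; whiskers, the central 90% of genes; the host introns lie higher in both types.

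Members had larger medians of size than genes with a shared end, and this was not tested. Median genomic span was 50568.5 bp for one-locus different-stop genes and 37529.5 bp for same-stop genes, against 27793 bp for shared-end genes. The maximum number of exons had medians of 12, 10.5 and 10, and the longest coding length 1783.5, 1560 and 1488 bases. The longest 3' UTR had medians of 1618.5, 1446 and 1121 bases. Genes with a single transcript were smaller still, with a median span of 14317 bp and a longest 3' UTR of 543 bases. The longest 3' UTR is a maximum over forms, and span takes in the end distance that the rule selected on. Both are therefore raised by the rule itself. By form, median 3' UTRs were 607 (proximal) and 1022.5 bases (distal) in different-stop genes. They were 371 and 1272 in same-stop genes, against 1101 in shared-end genes. The quartiles of span overlapped, at 22611 to 114796 bp for different-stop genes and 12433 to 73851 bp for shared-end genes. At least 3 coding transcripts were annotated in 41.4% of different-stop, 23.0% of same-stop and 32.3% of shared-end genes.

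The hexamer AATAAA was sought, on the transcribed strand only, with its first base 10 to 40 bases before each end. It was present at 1400 of 2221 covered ends of shared-end genes, which is 63.0%. Same-stop proximal ends had it in 15 of 68 (22.1%, 95% exact binomial interval 12.9 to 33.8%) and their distal ends in 32 of 63 (50.8%, 37.9 to 63.6%). For overlapping last exons the shares were 7 of 43 proximal (16.3%, 6.81 to 30.7%) and 20 of 39 distal ends (51.3%, 34.8 to 67.6%). Of these 43 proximal ends 13 lay at the stop codon, so the bases searched there were coding. Different-stop proximal ends had it in 223 of 467 (47.8%, 43.1 to 52.4%) and distal ends in 302 of 495 (61.0%, 56.6 to 65.3%). The intervals cover counting error only and take no account of the pairing of ends within genes. The share was lower at proximal than at distal ends in both classes, with intervals that did not overlap. Without ends at the stop codon, 15 of 55 same-stop proximal ends had it (27.3%, 16.1 to 41.0%), an interval that overlaps that of the distal ends. The 63 distal ends still include those of the genes left out. The intervals also overlapped within same-stop genes with separate last exons (32.0% proximal, 14.9 to 53.5%, and 12 of 24 distal, 29.1 to 70.9%).

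Skipped last exons came closer to shared ends than composite ones. Their proximal ends had AATAAA in 107 of 190 (56.3%, 48.9 to 63.5%), which overlaps the interval of their distal ends (61.5%, 54.7 to 68.0%). Composite proximal ends had it in 114 of 267 (42.7%, 36.7 to 48.9%) and composite distal ends in 60.4% (54.3 to 66.2%). Where the hexamer was present it started a median of 24 bases before same-stop proximal ends, 22 before different-stop proximal ends and 24 before shared ends.

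Within genes with both ends covered, AATAAA or ATTAAA stood at both ends in 12 of 57 same-stop genes, at the distal end alone in 27, at the proximal end alone in 5 and at neither in 13. In different-stop genes the counts were 196, 101, 53 and 41 of 391. The pairs printed for Uba1, Cstf3, Cflar, Ghr and Msi2 are of the first kind, and those for Il15ra and Kcnd3 of the second. Within the printed bases Eef2k is also of the second kind. For AATAAA alone the counts, in the same order, were 7, 23, 5 and 22 of 57 same-stop genes. Among different-stop genes they were 122, 121, 67 and 81 of 391.

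**Figure D5:**
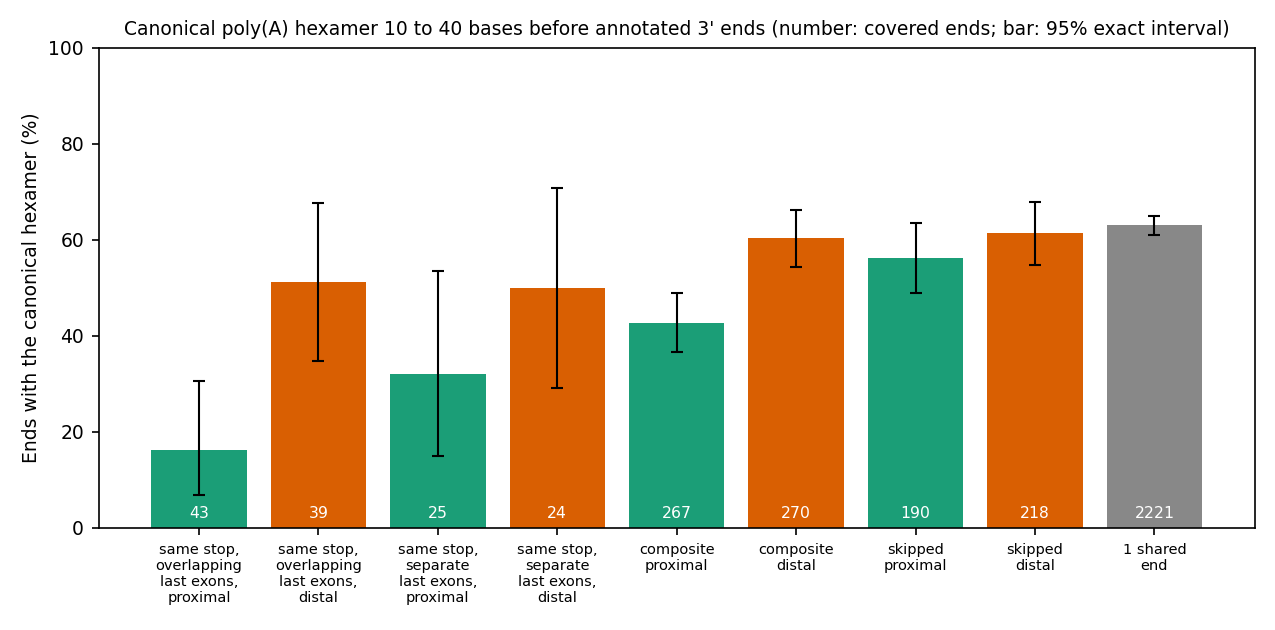
Percent of covered 3' ends with the canonical hexamer AATAAA starting 10 to 40 bases before the end, by class (numbers in the bars, covered ends; error bars, 95% exact binomial intervals). The lowest share is 16.3% at proximal ends of same-stop genes with overlapping last exons, and the shared-end genes stand at 63.0%. The ends in the lowest bar include 13 at the stop codon, where the bases searched are coding.

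A-rich sequence just past an annotated end was also counted, since oligo(dT) can prime cDNA from it. An end counted when its next 10 bases held at least 7 A or the run AAAAAA. This was found at 8 of 41 covered proximal ends of same-stop genes with overlapping last exons (19.5%, exact interval 8.82 to 34.9%). The count was 24 of 95 at composite proximal ends (25.3%, 16.9 to 35.2%), 8 of 47 at skipped proximal ends (exact interval 7.65 to 30.8%) and 0 of 8 at proximal ends of same-stop genes with separate last exons (0 to 36.9%). Distal ends had 15.4% (1.92 to 45.4%) in same-stop genes with overlapping last exons, 11.1% (5.46 to 19.5%) in composite and 14.8% (6.62 to 27.1%) in skipped genes. Shared ends had 39 of 600 (6.50%, 4.66 to 8.78%) and single-transcript genes 11.3% of 5904. All of the proximal intervals overlapped those of the distal ends in the same genes. Over all windows of 10 bases in the added 3' UTRs the share was 1.79%. Only ends with reference transcript beyond them could be read, and the part of internal priming was not tested.

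A second annotation, GENCODE M21, had a transcript end on the same strand within 25 bp of 2569 of the 2825 shared ends, or 90.9%. It had one at 55 of 74 same-stop proximal ends (74.3%) and 65 of 74 distal ends (87.8%). For different-stop genes the counts were 490 of 608 proximal (80.6%) and 534 of 608 distal ends (87.8%). The lowest share was again that of proximal ends in overlapping last exons, at 28 of 43 (65.1%, exact interval 49.1 to 79.0%). Whether the 2 annotations rest on the same records was not tested.

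The AU-rich heptamer TATTTAT, the core of the site bound by TTP, was counted in the 3' UTR sense strand, overlaps included. It was present in the longest covered 3' UTR of 3525 of 15620 coding genes, which is 22.6%, at 0.300 copies per kilobase. In the 39 same-stop genes whose nested 3' UTRs could be searched, the part added by the distal end carried it in 12 genes (30.8%), at 0.258 copies per kilobase. The part common to both forms carried it in 4 of the 27 genes with a common part, at 0.493 per kilobase from 6 copies. Of the 27 genes with a common part, 5 held copies in the added part alone. Another 6 of the 39 had copies and no common part, since their proximal forms end at the stop codon, so their copies could lie nowhere else. The added part was longer in sum, 58.2 against 12.2 kilobases, and per kilobase it held no more copies than 3' UTRs at large.

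Fam134b, an endoplasmic reticulum autophagy receptor gene, held the most copies in its added part, 3 in 1343 bases and 0 in the common 298 bases. Insig2, which encodes a regulator of sterol synthesis, held 2 in 1169 added bases and 0 in the common 384. Apbb2, Ate1 and Bnip2 held 1 each in 3163, 3064 and 1202 added bases, as did other genes ranked behind them by name. These sites are shown because they are present only in the distal forms, with TATTTAT in capitals. The first Fam134b window holds 2 overlapping copies, of which 1 is capitalised.
Fam134b, chr15:25973335-25973364, plus: gtaccatctccTATTTATttattgttttct
Fam134b, chr15:25973651-25973680, plus: atacagccacaTATTTATaaaacagttgtt
Insig2, chr1:121304857-121304886, minus: cgcctgccatgTATTTATgggttaagtcga
Insig2, chr1:121304504-121304533, minus: ccacactactcTATTTATtattctgtcttt

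Gene functions were described by lists, read against the 18.8% of one-locus multi-transcript genes that were members. The receptors known for soluble or truncated forms had 12 members among 17 multi-transcript genes (70.6%), but that list was compiled for such forms and is no independent evidence. All 12 had different stop codons and a shared start codon. The last exon was composite in 5 and skipped in 7, and the proximal form was the shorter protein in 11. The proximal form had a median of 58.7% of the distal codons (19.3 to 196%).

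Ntrk2 and Ntrk3, the receptors for brain-derived neurotrophic factor and neurotrophin 3, had the widest ends of the list, 192936 and 108577 bp. Ntrk2 had 476 codons in the proximal form against 821, and Ntrk3 612 against 825. Egfr, the epidermal growth factor receptor, had 655 and 1210 codons from ends 26249 bp apart. Lepr, the leptin receptor, had 892 and 1162 codons from ends 23096 bp apart, and its composite exon ran 188 bp into the last intron. Il1rap, the co-receptor of the interleukin-1 family, had 360 and 640 codons from ends 22793 bp apart. Nrp2, a semaphorin co-receptor, differed little in length, with 906 and 931 codons from ends 21601 bp apart.

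The other members were Fas, Ghr, Ifnar2, Il1rl1, Lifr and Prlr. Fas, the death receptor, had the shortest proximal form, 63 codons against 327. Il1rl1, the interleukin-33 receptor, had 337 against 567, with 26 coding bases found only in the proximal form. Ifnar2, an interferon receptor chain, had 248 against 513. Ghr, the growth hormone receptor, had 297 against 650, and Lifr, the leukaemia inhibitory factor receptor, 719 against 1092. Prlr, the prolactin receptor, ran the other way, with 608 codons in the proximal form and 310 in the distal form.

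The change of carboxyl end is visible in the bases. For 3 composite receptor genes and for Calca and Cdc42 the last 27 coding bases of both forms are printed with the stop codon in capitals.
Il1rl1 proximal, chr1:40446675-40446704, plus: agtaaggagtgtccctcacacattgctTGA
Il1rl1 distal, chr1:40462140-40462169, plus: aaggcatgcttagacctgaaacactttTGA
Egfr proximal, chr11:16887199-16887228, plus: cagtggatcttaaagaccttttggatcTAA
Egfr distal, chr11:16911826-16911855, plus: cctccaagcagtgagtttattggagcaTGA
Lepr proximal, chr4:101792053-101792082, plus: ggactgaatttccaaaaggtcactgttTAA
Lepr distal, chr4:101815240-101815269, plus: gagaataagatgtgtgacttaactgtgTAA
Calca proximal, chr7:114633602-114633631, minus: acaaaccaccaatcccattttggcaacTAA
Calca distal, chr7:114632440-114632469, minus: ggccgccgccgcagggaccttcaggccTGA
Cdc42 proximal, chr4:137322530-137322559, minus: caacccaaaaggaagtgctgtatattcTAA
Cdc42 distal, chr4:137321103-137321132, minus: aagaagagccgcaggtgtgtgctgctaTGA

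In the composite receptors the coding sequence crosses an unused splice donor. The windows below hold 15 exonic bases, then the GT of the intron in capitals and the bases after it, which the proximal form reads as exon.
Il1rl1 donor, chr1:40446661-40446690, plus: gaaggaaacaaccaaGTaaggagtgtccct
Egfr donor, chr11:16887171-16887200, plus: agtgtggccatctggGTacgttcaatggca
Lepr donor, chr4:101792056-101792085, plus: ctgaatttccaaaagGTcactgtttaagta
Ifnar2 donor, chr16:91393899-91393928, plus: ctggccaggaatcagGTatggctaggtttt

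In Lepr the donor and the stop codon fall in the same window, and only 9 coding bases were private to the proximal form. Egfr read 40 private coding bases, and Ifnar2 35.

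Of the textbook genes with alternative polyadenylation, 6 of 9 multi-transcript genes were members (66.7%), again a list chosen for this property. Calca, which yields calcitonin from one last exon and the neuropeptide CGRP from another, had 136 codons in the proximal and 128 in the distal form. Cdc42, a small GTPase of the actin cytoskeleton, had 191 codons in both forms, with 87 coding bases in each form at positions that the other did not use. Tpm1, a tropomyosin gene, had 284 codons in both. Atp2a2, the calcium pump of the sarcoplasmic reticulum, had 1044 and 998 codons, and Nfatc1, a calcium-regulated transcription factor of lymphocytes, 717 and 939. Cdc42 and Tpm1 therefore exchanged carboxyl ends without a change in length.

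Of 25 listed cleavage and polyadenylation factor genes, 7 were multi-transcript and 3 of those were members (42.9%), all composite. With counts this small the share is imprecise beside the 18.8% of all one-locus multi-transcript genes. Cstf3, a subunit of the cleavage stimulation factor that is also on the textbook list, had 44 codons in the proximal form and 717 in the distal form. Its proximal form ended 243 bp into intron 3 of the distal form, which at 35102 bp was the longest of its 20 introns. Rbbp6 had 123 and 1790 codons and Wdr33, which contacts the signal hexamer, 312 and 1330. The RNA-binding regulators of 3' UTRs had 2 of 17 (11.8%). Msi2, a Musashi protein gene, had 158 and 346 codons and 3' UTRs of 126 and 5310 bases, and Qk, the quaking gene, had 319 and 341 codons.

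The lists closest to the spleen and to TTP held few multi-transcript genes, so their shares are imprecise beside the 18.8% of all one-locus multi-transcript genes. Cytokines and other known TTP targets had 0 of 3 multi-transcript genes out of 25 listed, and myeloid, red pulp and erythroid genes 0 of 7. NF-kB and TNF receptor signalling had 1 of 11, Cflar, an inhibitor of caspase-8 activation, with 215 codons and an 865-base 3' UTR in the proximal form against 481 codons and 4960 bases in the distal form. B and T lymphocyte genes had 4 of 17 (23.5%). They were Bcl2, an inhibitor of apoptosis, with 21 coding bases private to the proximal form, 132 private to the distal form and ends 173595 bp apart, Nfatc2 with 673 and 927 codons, Nfatc1, and Cd247, the T cell receptor zeta chain, with 164 and 177 codons. Ribosomal protein genes had 0 of 9.

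Families were also counted by the start of the gene symbol, which takes in some genes that do not share the family's function, such as the regulator Kcnrg among Kcn symbols and the interacting protein Pde4dip among Pde symbols. Of the 53 families examined, 14 had 10 or more multi-transcript genes. In 3 of the 14 the share of members was above 18.8%, with Kcn, mostly potassium channels, at 7 of 23 (30.4%), Fbx, F-box genes, at 4 of 13 (30.8%) and Pde, mostly phosphodiesterases, at 4 of 10. In the other 11 it was below, from 0% in Rab GTPases (0 of 12) to 16.0% in solute carriers (Slc, 12 of 75), with zinc finger genes (Zfp) at 9 of 70 (12.9%). These counts are small, and none is called particular to its family.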

How the data were processed

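Spleen RNA-seq of 16 samples in 4 groups was the assay. The submitters' processing notes name TopHat2 2.0.4 and the mm10 build. The counting method is not given in the sources used here, nor is the origin of the annotation. The deposited file holds gene models only. Its exon, coding and stop codon lines were read with Python 3.11.15, pandas 2.3.3 and scipy 1.17.1. Each gene's most proximal and most distal end was represented by 1 transcript, the first by accession where several shared an end. A 3' UTR is the exonic bases after the stop codon. The classification was tested on simulated gene models, 200 per class. The plan had asked for reference bases of the same build. These came from GENCODE M21 transcripts on GRCm38, so uncovered ends were not searched, and of 26397 stop codons looked up 99.9% read as a stop. Nothing was tested, because no samples have values, and shares are descriptions.

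The members and lists were chosen with earlier results of these data known. Named genes are the 10 widest of each class, the 3 on either side of the limit, the 5 with most ends, members of the lists and the 5 with most TATTTAT, and some of these are not reported here. The counts of host introns, splice donors, A-rich sequence and gene loci were added after the file was seen. Alternatives changed the distance limit, transcripts, genes, windows and motifs.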

Additional observations from a re-analysis of the deposited data

How the results depend on the processing

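No paired analysis was possible because no sample has values in the file used here. Of 76 alternative values, 62 stayed within 1.5 times the count or median, or within the 95% interval of the share, and 14 moved. Some of the 62 left the value unchanged and so say nothing of stability. Requiring a start codon, or keeping only transcripts with NM_ names, gave the same 848 members. The limit to 1 overlapping locus kept all 74 same-stop genes. The number of members ranged from 682 (genes of 1 overlapping locus) to 854 (ends 100 bp apart), and same-stop genes from 50 (ends 1000 bp apart) to 90 (classed by pairs of transcripts). The median end distance of all 774 different-stop members, 19096.5 bp, became 11879.5 bp without separate loci, and the median difference in 3' UTR length, another quantity, was 597.5 bases. With ATTAAA added to AATAAA the shares rose to 35.3% and 66.7% at same-stop proximal and distal ends and to 63.6% and 75.4% at different-stop ends, by construction of a wider search. Same-stop proximal ends with no exon of the gene within 50 bp beyond them had AATAAA in 38.1%, a set of 21 ends that holds no overlapping last exon. The pentamer ATTTA was in 37.0% of common and 82.1% of added parts, at 1.81 and 1.68 copies per kilobase. The nonamer TTATTTATT was in 7.41% of common and 7.69% of added parts, at 0.247 and 0.0515 copies per kilobase. Added parts were longer in sum, so the shares of genes do not compare density. A GENCODE end within 10 bp was found for 76.6% of different-stop proximal ends. As a share of all coding genes, members were 3.34% and the receptor list's members 38.7% of its genes. Leaving out ends at the stop codon was chosen after seeing the data. Depth per sample is unknown, and ends without covering reference transcripts limited every sequence count.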
